A study of Mus musculus with 3 samples.

Results

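The genes described here make the machinery that copies DNA once per cell cycle and the deoxynucleotides it uses. They were 35 mouse genes taken from a list by symbol, and all 35 were found among the 19938 genes measured. They were read on 3 Affymetrix arrays, 1 array per group. The groups were cultured mouse fibroblasts, cells named DiBA in a series whose title speaks of direct conversion into brown adipocytes, and the BA sample, for which the labels give brown adipose tissue as the source and cultured cells in the description. Growth was at 37℃ with 5% CO2 for all 3 samples, and the labels give no treatment, genotype, strain, age, conversion factor or number of passages. Each group held 1 array, so a difference has no replicate error and no test, and every comparison describes these 3 arrays.

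Cells license origins of replication in G1 by loading the MCM helicase with the help of ORC, CDC6 and CDT1. Cyclin E and its kinase then help to start S phase, in which helicase, primase, polymerases, sliding clamp and ligase copy the genome while ribonucleotide reductase and thymidylate synthase supply deoxynucleotides. Many of these genes are transcribed under E2F factors, which the retinoblastoma family holds in check, and most are low in resting or terminally differentiated cells. Mature adipocytes are textbook examples of cells that have left the cell cycle.

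Every one of the 35 genes had its highest intensity in fibroblasts. A gene was called lower or higher at a difference of at least 2-fold in log2(intensity + 1), where the brighter of both arrays reached 69.2, the median of all probe sets. In DiBA, 24 of the 35 were called lower than in fibroblasts and 0 higher, where 13.2% of all genes passing that filter were called lower and 14.7% higher. In BA, 25 were called lower and 0 higher, against 16.4% and 16.3% of all genes. Of all genes passing the filter, 47.85% lay below their fibroblast value in DiBA and 47.81% in BA. The median difference from fibroblasts was -1.18 (log2) in DiBA and -1.57 in BA, while the median of all genes passing the filter was 0 in both comparisons. Of all probe sets, 33.4% carried exactly the same value on all 3 arrays, which bears on that median. Both comparisons share the fibroblast array, so their values are given side by side only. Of the 35 genes, 23 were called lower in both and 9 in neither. This overlap was not counted over all genes, so it has no background to be read against.

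None of the 35 lay under 69.2 in fibroblasts, 5 did in DiBA and 15 in BA, so folds that use those values are also given with intensities raised to at least 69.2, called the floor below. Of the 30 genes at or above 69.2 in DiBA, 22 were called lower there than in fibroblasts, and of the 20 at or above it in BA, 13 were. The same was not counted over all genes, so these counts have no background to be read against. The brightest array of each gene was the fibroblast one, through which all 35 passed the filter in both comparisons. DiBA lay strictly between BA and fibroblasts for 29 of the 35, a count that was not made over all genes. For Orc1, Cdc45, Pold1 and Dut the DiBA and BA values were identical, as they were for 47.3% of all probe sets, and what made them identical is not stated.

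**Figure D1:**
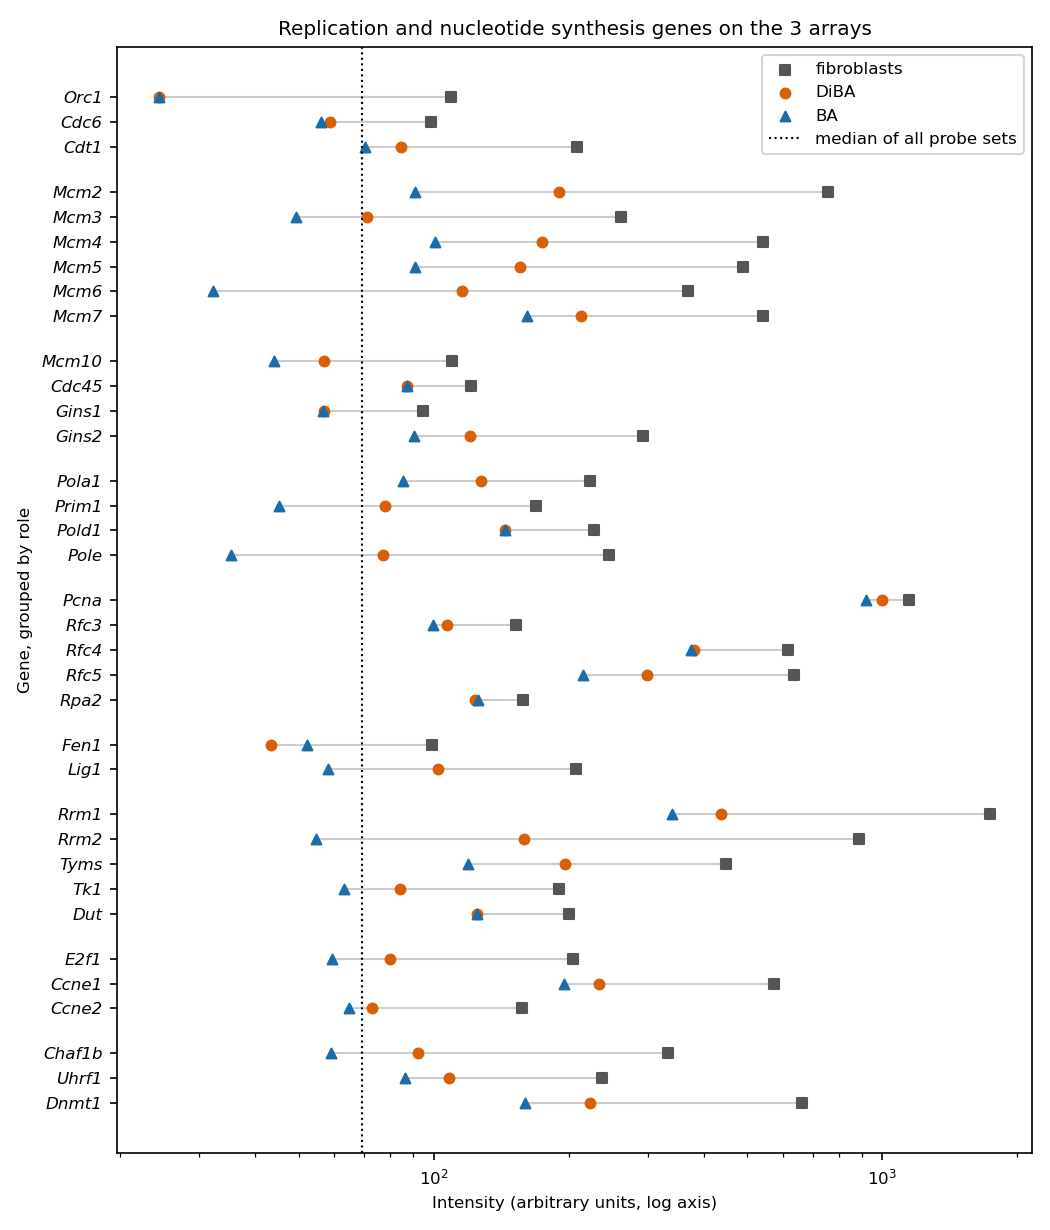
Intensity (log axis, arbitrary units) of the 35 genes, grouped by role, in fibroblasts (squares), DiBA (circles) and BA (triangles), 1 array each. The dotted line is the median of all probe sets, 69.2. The square is the rightmost point of every gene, 15 triangles and 5 circles lie left of the line, and Pcna has the narrowest spread.

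Markers of the labelled cells were read on the same arrays. All 8 brown adipocyte markers, Ucp1 among them, were at least 2-fold higher in DiBA and in BA than in fibroblasts, with summed intensities of 332 in fibroblasts, 25282 in DiBA and 26085 in BA. Of these markers, 7 lay under 69.2 in fibroblasts. With the floor, Elovl3 was 1.11-fold and 1.43-fold higher in DiBA and BA and Dio2 1.55-fold in both, while the others stayed above 2-fold. The 8 fibroblast markers summed to 32399.6, 12921 and 9561 in the same order. Most markers of other cell types were higher on the arrays where the members were lower. The 7 endothelial markers summed to 459.6 in fibroblasts, 2958 in DiBA and 3519.6 in BA, and the junction gene Cdh5 read 32.6, 1027 and 1188. The 7 skeletal muscle markers summed to 1017, 9347 and 10650.4. Myod1, at 128.3, 60.4 and 59.5, and Myog, at 82.3, 39.7 and 35.95, went the other way. Both were called lower in DiBA and BA, where they lay under 69.2. The 8 macrophage and immune markers summed to 614, 2262 and 2418, and of 5 erythrocyte markers the 2 measured, Alas2 and Slc4a1, summed to 97.7, 340.2 and 420.4. Slc4a1 alone read 71.8 in fibroblasts and 80.2 in DiBA and BA, so that rise was nearly all in Alas2. No marker was listed at 0. DiBA, labelled as cultured cells, thus carried endothelial and muscle markers close to the BA level, and the part of other cell types in the members' differences was not tested. In bulk RNA, fewer cells expressing a gene and less of its RNA per cell cannot be told apart.

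Because the members were low together in DiBA and BA, their promoters were searched for the words of factors known to act on cell cycle genes. RefSeq promoters of GRCm38.p6, each 250 bases before to 50 after a start, were found for 30 of the 35 genes, 37 promoters in all. The E2F word was any of TTTCGCGC, TTTGGCGC, TTTCCCGC and TTTGCCGC on either strand, overlaps included. It stood in 13 of the 37 member promoters (35.1%) and in 744 of all 32851 promoters (2.26%). Among lists described below, E2F, cyclin and CDK partners held it in 7 of 20 promoters (35%), the same share as the members. Other replication genes held it in 9 of 40 (22.5%) and S phase repair genes in 3 of 14 (21.4%). Other nucleotide synthesis genes held it in 2 of 34 (5.88%) and mitosis genes in 2 of 25 (8%). The word TTTGAA of the CHR element, on either strand, which binds the complex that times mitosis genes, had the opposite spread: 4 of 37 member promoters (10.8%), 17 of 25 mitosis promoters (68%) and 17.9% of all promoters.

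The NF-Y word CCAAT stood in 54.1% of member promoters, 72% of mitosis promoters and 37.4% of all promoters, on either strand. The Sp1 word GGGCGG stood in 67.6%, 80% and 35.7%. Member promoters held 59.6% G and C, mitosis promoters 61.4% and all promoters 53.8%, so base composition moves with these shares and its part was not tested. A word is a match of letters and was not shown to be bound in these samples.

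**Figure D2:**
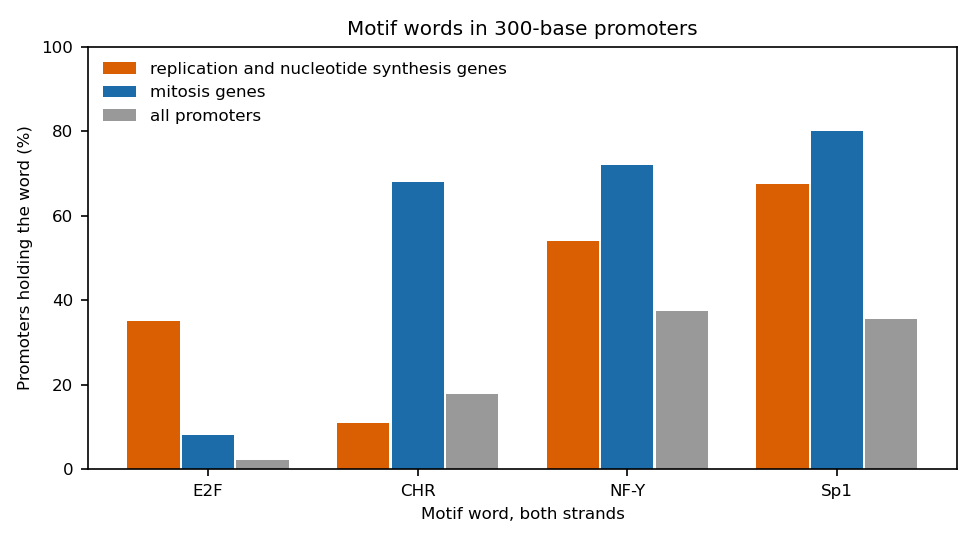
Percent of RefSeq promoters (each 300 bases) that hold the E2F, CHR, NF-Y or Sp1 word on either strand, for the replication and nucleotide synthesis genes (37 promoters), mitosis genes (25) and all promoters (32851). The E2F bar of the replication genes reaches 35.1% against 2.26% for all promoters, and the CHR bar of the mitosis genes 68% against 17.9%.

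Examples were taken from Mcm5 and Mcm6, helicase subunits, and from Orc1 and Cdc6, which license origins. Rrm2, the member with the largest difference, whose promoter held no E2F word, was added for contrast. The stretches shown are the 200 bases before the start of each gene and were not ranked by their words. They lie at chr8:75109309-75109508 (plus strand) for Mcm5, chr1:128359706-128359905 (minus strand) for Mcm6, chr4:108579254-108579453 (plus strand) for Orc1, chr11:98907951-98908150 (plus strand) for Cdc6 and chr12:24708054-24708253 (plus strand) for Rrm2, all GRCm38.p6. Each is written 5′ to 3′ on the gene's strand and ends at the base before the start. Capitals mark the E2F words, and in Rrm2 the NF-Y word. The Mcm5, Mcm6 and Orc1 stretches hold the NF-Y word too, where it is not marked.
Mcm5: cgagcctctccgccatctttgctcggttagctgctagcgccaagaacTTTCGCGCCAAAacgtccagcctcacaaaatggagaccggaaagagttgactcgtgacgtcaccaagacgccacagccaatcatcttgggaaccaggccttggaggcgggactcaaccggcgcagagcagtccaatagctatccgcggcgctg
Mcm6: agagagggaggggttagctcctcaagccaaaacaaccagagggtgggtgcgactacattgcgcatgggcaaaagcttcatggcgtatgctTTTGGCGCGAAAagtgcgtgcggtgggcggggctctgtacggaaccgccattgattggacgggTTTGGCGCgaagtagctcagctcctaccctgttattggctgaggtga
Orc1: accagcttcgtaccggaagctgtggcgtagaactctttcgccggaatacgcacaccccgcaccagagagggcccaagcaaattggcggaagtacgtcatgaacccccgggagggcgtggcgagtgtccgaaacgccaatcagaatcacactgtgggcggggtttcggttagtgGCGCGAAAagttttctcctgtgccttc
Cdc6: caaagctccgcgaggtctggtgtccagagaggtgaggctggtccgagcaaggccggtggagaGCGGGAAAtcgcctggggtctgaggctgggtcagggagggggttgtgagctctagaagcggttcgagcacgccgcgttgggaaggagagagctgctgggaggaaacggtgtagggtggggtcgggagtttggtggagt
Rrm2: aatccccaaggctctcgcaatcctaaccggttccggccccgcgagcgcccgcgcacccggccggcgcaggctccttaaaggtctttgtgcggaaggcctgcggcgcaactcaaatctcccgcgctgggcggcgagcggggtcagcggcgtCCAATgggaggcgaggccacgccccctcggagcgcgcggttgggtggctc

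In Mcm5 a pair of overlapping E2F words began at positions -153 and -149, counted back from the start. Mcm6 had the same arrangement at -110 and -106 and a further word at -47. Orc1 had 1 word at -27 and Cdc6 1 at -138. Of these 4 genes, Mcm5 and Mcm6 were called lower in DiBA and BA, and so was Orc1, while Cdc6 was in neither. Over the 30 members with a promoter, the 13 with the E2F word had a median difference from fibroblasts of -1.29 in DiBA and -1.74 in BA, and the 17 without it -1.17 and -1.56 (log2). The word was thus common among the members but their medians with and without it lay close together. Of all measured genes with a promoter 3.48% held the word, and of the 9313 passing the filter 4.68%, against 5.85% of the 1488 called lower in BA and 2.77% of the 1481 called higher there. The members are among these genes, and 10 of the 87 genes with the word called lower in BA were members.

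The MCM helicase, a ring of 6 related subunits that unwinds DNA at the fork, was lower as a whole. All 6 subunit genes were called lower in DiBA and in BA, with median differences of -1.66 and -2.42 (log2). Mcm2 read 756 in fibroblasts, 189.9 in DiBA and 90.7 in BA, which is 3.96-fold and 8.25-fold lower than in fibroblasts. Mcm6 read 369, 115 and 32.1, or 3.18-fold and 11.2-fold lower. Its BA value lay under 69.2, and raising it to that floor gave 5.27-fold. Mcm4 read 543, 174 and 101, and Mcm5 490.3, 156 and 90.7, so these subunits were lower by nearly the same factors, 3.11-fold and 3.14-fold lower in DiBA and 5.34-fold and 5.36-fold lower in BA. Mcm3 read 261, 70.8 and 49.3, 3.65-fold and 5.21-fold lower, and 3.74-fold in BA with the floor. Mcm7, with 542, 213 and 162, had the smallest differences of the ring, 2.53-fold and 3.34-fold lower.

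The 3 members that place this ring on origins read lower too, with values near or under 69.2 in DiBA and BA. Orc2, Orc3, Orc4, Orc5 and Orc6, which are not members, were called in neither comparison. Orc1, the large subunit of the origin recognition complex, read 109 in fibroblasts and 24.4 in both DiBA and BA, 4.36-fold lower, and 1.58-fold with the floor. Cdt1, the loading factor that is destroyed once S phase starts, read 208, 84.5 and 70.2, or 2.45-fold and 2.94-fold lower. Cdc6, the loading ATPase, read 98.4, 58.8 and 56.2 and did not reach 2-fold in DiBA or BA. Licensing genes therefore had 2 of 3 called lower in each comparison, 1 of them at or above 69.2 in DiBA and BA.

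Genes that turn the loaded ring into a moving helicase differed less, with medians of -0.83 in DiBA and -1.01 in BA (log2). With the floor their median was -0.56 in both, near the -0.655 of the licensing genes. Gins2, a subunit of the GINS complex, read 293, 121 and 90.4 and was called lower in DiBA and BA, at 2.42-fold and 3.21-fold. Gins1, another GINS subunit, read 94.5, 57.0 and 56.6, under 2-fold in both. Cdc45, the partner that completes the active helicase with GINS, read 121 in fibroblasts and 87.3 in DiBA and BA, 1.38-fold lower. Mcm10, a factor of helicase start that is no part of the ring, read 109.7, 56.8 and 44.1, which passed 2-fold in BA only, at 2.45-fold. With the floor it was 1.58-fold lower there.

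Among polymerases, the leading-strand enzyme differed most. Pole, the catalytic subunit of polymerase epsilon, read 246 in fibroblasts, 77.0 in DiBA and 35.3 in BA, 3.16-fold and 6.80-fold lower, and 3.52-fold in BA with the floor. Prim1, the primase subunit that lays RNA primers, read 169, 77.9 and 45.2, or 2.16-fold and 3.69-fold lower, and 2.43-fold in BA with the floor. With a pseudocount of 16 its difference in DiBA was -0.98 (log2), short of 2-fold. Pola1, the polymerase subunit that extends those primers, read 223, 127 and 85.2 and was called lower in BA only, at 2.60-fold against 1.75-fold in DiBA. Pold1, of the lagging-strand polymerase delta, read 228 in fibroblasts and 144 in DiBA and BA, 1.57-fold lower.

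The clamp and its loader had the smallest differences of the 9 roles, with medians of -0.51 in DiBA and -0.61 in BA, although with the floor the BA median of helicase activation, -0.56, was smaller. Pcna, the sliding clamp, read 1147, 997 and 918 as the mean of its 2 probe sets, 1.15-fold and 1.25-fold lower. The probe sets gave 1129, 981 and 912 and 1166, 1013 and 923, so they lay close together. Both carry the Pcna symbol, and signal from near-identical copies of the gene could not be separated here. Rfc5, a subunit of the clamp loader, read 635, 299 and 216 and was the 1 gene of 5 called lower, at 2.12-fold and 2.94-fold. Its partners Rfc4, with 615, 379.7 and 375, and Rfc3, with 153, 107 and 99.8, stayed under 2-fold. Rpa2, a subunit of the single-strand binding protein, read 158, 123 and 125. PCNA and RPA also serve DNA repair, some of which takes place outside S phase, and its part in these values was not tested.

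Joining of lagging-strand fragments needs FEN1, which trims their ends, and DNA ligase I. Lig1 read 208, 102 and 58.0, 2.03-fold lower in DiBA and 3.54-fold in BA, or 2.98-fold in BA with the floor. With a pseudocount of 16, Lig1 was at -0.92 and Fen1 at -0.96 (log2) in DiBA, both short of 2-fold. Fen1 read 99.1, 43.3 and 52.0, 2.26-fold lower in DiBA and 1.89-fold in BA. Fen1 was thus called in DiBA alone, and with the floor its difference was 1.43-fold in both.

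Deoxynucleotide supply held Rrm2, the member with the largest difference from fibroblasts in DiBA and in BA. Rrm2, the small subunit of ribonucleotide reductase, which is made in S phase and sets the enzyme's activity, read 889 in fibroblasts, 159 in DiBA and 54.5 in BA. That is 5.55-fold lower in DiBA and a difference of -4.00 (log2) in BA, or 12.7-fold lower in BA with the floor. Rrm1, the large subunit, read 1743, 438 and 339.8, or 3.97-fold and 5.12-fold lower, and stayed well above 69.2 on every array. Tyms, thymidylate synthase, read 448, 196 and 119, 2.28-fold and 3.74-fold lower. Tk1, the thymidine kinase of S phase, read 189.9, 84.1 and 63.1 over 2 probe sets, 2.24-fold and 2.98-fold lower, or 2.18-fold and 2.72-fold with the floor. Its dimmer probe set read 137, 65.4 and 61.2 and its brighter one 263, 108 and 65.1, so the size of the Tk1 difference depends on the probe set. Dut, which removes dUTP, read 201 in fibroblasts and 125 in DiBA and BA, which stayed under 2-fold.

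The genes of S phase entry were lower by similar factors. E2f1, an activating E2F factor, read 204, 79.7 and 59.4, or 2.54-fold and 3.40-fold lower, and 2.92-fold in BA with the floor. Ccne1, cyclin E1, read 574, 233 and 195, 2.45-fold and 2.94-fold lower, and Ccne2, cyclin E2, 157, 72.7 and 64.7, 2.15-fold and 2.41-fold lower, the latter 2.26-fold with the floor. With a pseudocount of 16, Ccne2 was at -0.97 (log2) in DiBA, short of 2-fold. All 3 were called lower in both comparisons at the pseudocount of 1.

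Genes that restore chromatin and DNA methylation behind the fork were also called lower in both, 3 of 3. Dnmt1, the maintenance DNA methyltransferase, read 663, 223 and 159, 2.96-fold and 4.14-fold lower. Uhrf1, which recruits DNMT1 to hemimethylated sites, read 237, 108 and 86.0, 2.18-fold and 2.73-fold lower. Chaf1b, a subunit of the histone chaperone CAF-1, read 332, 92.0 and 59.1, 3.58-fold and 5.54-fold lower, with 4.75-fold in BA under the floor.

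DiBA and BA were then set against each other. The median of the 35 differences, DiBA minus BA, was 0.40 (log2), where the median of all genes passing the filter was 0. DiBA was above BA for 29 genes, equal for 4 and below for Fen1 and Rpa2. Of all genes passing the filter, 41.26% lay below BA in DiBA. In this comparison 30 of the 35 passed the filter, and 4 of the 35 were called higher in DiBA, against 1.75% of all genes passing it. These were Mcm6 at 3.51-fold, Rrm2 at 2.89-fold, Pole at 2.15-fold and Mcm2 at 2.08-fold. In DiBA the intensities of these 4 lay between 77.0 and 189.9. With the floor Rrm2 and Mcm2 still reached 2-fold, at 2.28 and 2.08, while Mcm6 was at 1.66-fold and Pole at 1.11-fold. With each array centred on its median, Mcm2 no longer reached 2-fold and 3 genes were called. No member was called lower in DiBA than in BA, and neither was any other gene (0%).

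The place of DiBA between the other arrays was expressed as the percent of the way from the BA to the fibroblast intensity. For the 25 members called lower in BA its median was 14.9%, with quartiles of 12.1% and 19.8%. For all 1913 genes called lower in BA the median was 10.2% (quartiles 3.87% and 17.5%), and for 27 mitosis genes 9.87% (8.05% and 13.1%). Pola1, at 30.6%, Lig1, at 29.4%, and Prim1, at 26.4%, lay farthest toward fibroblasts, and Orc1, at 0%, nearest to BA. Genes called higher in BA lay on the same side: the median of 1897 such genes was 16.3% of the way from BA to fibroblasts. Genes were chosen here on the BA and fibroblast arrays, which also set the scale, so these percentages are a description.

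**Figure D3:**
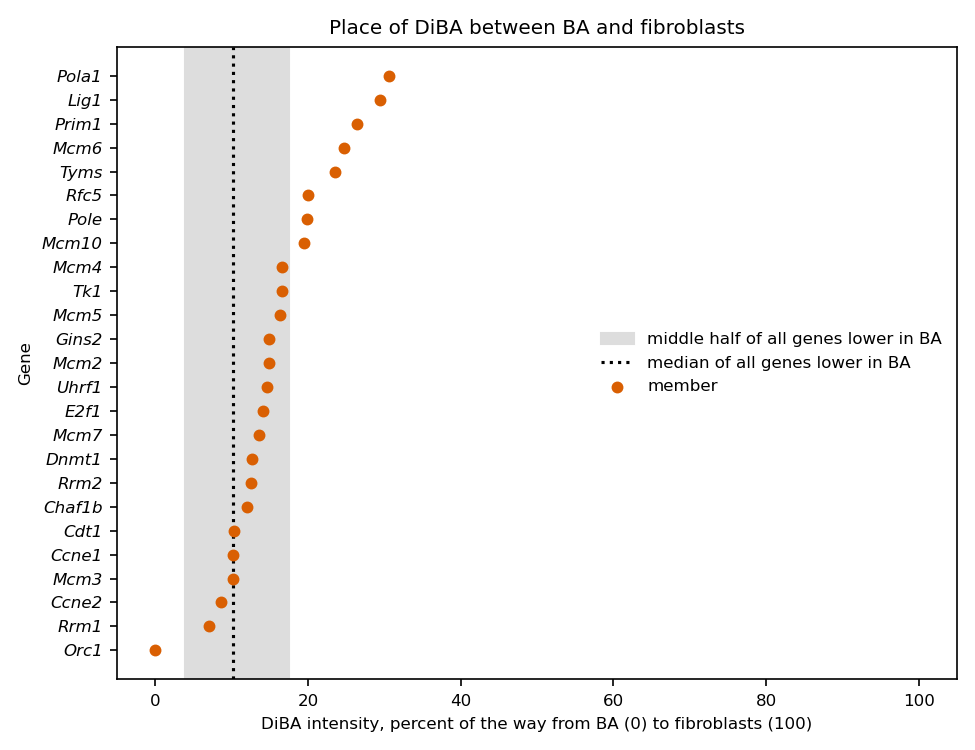
Place of DiBA on a linear scale from the BA intensity (0%) to the fibroblast intensity (100%) for each of the 25 members called lower in BA (points). The grey band spans the quartiles, 3.87% to 17.5%, and the dotted line the median, 10.2%, of all 1913 genes called lower in BA. The points run from 0% for Orc1 to 30.6% for Pola1.

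Related genes, listed by pathway but with earlier results of these data known, placed the members in context. Of 40 other replication genes measured, 8 were called lower and 1 higher in DiBA, and 11 lower and 2 higher in BA, with medians of -0.25 and -0.29. Hells, a chromatin remodeller, was at -1.65 in DiBA and -3.54 in BA, Dbf4, the activator of the origin-firing kinase, at -2.60 and -3.29, and Ticrr, which helps to fire origins, at -1.74 and -2.85, each under 69.2 in DiBA and BA. Among subunits of the members' own complexes, examples chosen after their values were seen, differences were unequal. Pole2, of polymerase epsilon, read 200.5, 55.3 and 41.9, and Prim2, of primase, 329, 162 and 139, and both were called lower in DiBA and BA. Pold2, of polymerase delta, read 702 in fibroblasts and 659.7 in DiBA and BA. No other subunit of the members' complexes on this list was called lower in both comparisons. Chaf1a was called lower and Pold4 higher, each in BA alone. The rest of these subunits were called in neither, with differences in DiBA and BA of 0.77 and 0.74 for Orc5 and -0.20 and -0.09 for Pole3.

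Of 27 other nucleotide synthesis genes measured, 7 were called lower and 2 higher in DiBA, and 8 and 2 in BA, with medians of -0.25 and -0.32. Ctps, CTP synthase, read 613, 118 and 65.0, and Dctd, the deaminase that feeds thymidylate synthesis, read 807, 293 and 96.3. Impdh1, an enzyme of guanine nucleotide synthesis, went the other way, from 234 in fibroblasts to 1611 in DiBA and 1887 in BA. Among purine synthesis genes, picked as examples after their values were seen, Paics, at 2104, 1787 and 1811, and Gart, at 649, 546 and 544, stayed under 2-fold. Atic, of the same pathway, read 1129, 663 and 509 and was called lower in BA, at 2.21-fold.

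Partners of the S phase entry genes included Ccna2, cyclin A2, which read 1258, 175 and 39.3, and the repressor E2f8, at 219, 50.2 and 32.6. Of these 19 partners, 9 were called lower and 1 higher in DiBA and 11 and 1 in BA, with medians of -0.99 and -1.23. Of 16 genes of replication stress and S phase repair, 6 were called lower in DiBA and 9 in BA, with 0 higher and medians of -0.84 and -1.27. Chek1, the checkpoint kinase, read 309, 78.0 and 35.7, and Rad18, a ligase of damage tolerance at the fork, 850.4, 236 and 186. With the floor those last medians were -0.42 and -0.43, since 7 of the 16 genes lay under 69.2 in DiBA and 10 in BA.

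Mitosis genes, which are switched on later in the cycle, had larger differences. All 27 measured were called lower in DiBA and in BA, with medians of -2.19 and -3.25. With the floor the medians were -2.05 and -2.71, against -1.13 and -1.55 for the members. Bub1, a spindle checkpoint kinase, read 690.0, 88.3 and 22.4, and the proliferation marker Mki67 read 963, 281 and 34.0. No test of the difference between both lists could be made with 1 array per group.

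Genes that keep mitochondrial DNA and its nucleotide pools in cells outside S phase did not follow the members. Of 12 genes of mitochondrial DNA upkeep, 9 lay above their fibroblast value in DiBA and in BA, with 1 called higher and 1 lower in each and medians of 0.37 and 0.44. Tfb2m, a mitochondrial transcription factor, read 388, 954 and 1016, and the nuclease gene Exog 81.1, 31.5 and 26.3, or -0.23 in DiBA and BA with the floor. Tfam, which packages mitochondrial DNA, read 147, 273 and 272. Of 7 genes of deoxynucleotide supply outside S phase, 6 lay above fibroblasts in each, with 1 called higher in DiBA and 2 in BA and medians of 0.65 and 0.77. Slc25a33, a mitochondrial carrier of pyrimidine nucleotides, read 88.8, 180.2 and 215. Tk2, the mitochondrial thymidine kinase, read 95.5, 187 and 213, where Tk1 read 189.9, 84.1 and 63.1. Rrm2b, the reductase subunit used outside S phase, read 108, 144 and 151, a difference of 0.41 in DiBA and 0.48 in BA, where Rrm2 was at -2.47 and -4.00. Samhd1, which breaks down deoxynucleotides, was the 1 gene of the 7 below fibroblasts, at 962, 674 and 629.

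**Figure D4:**
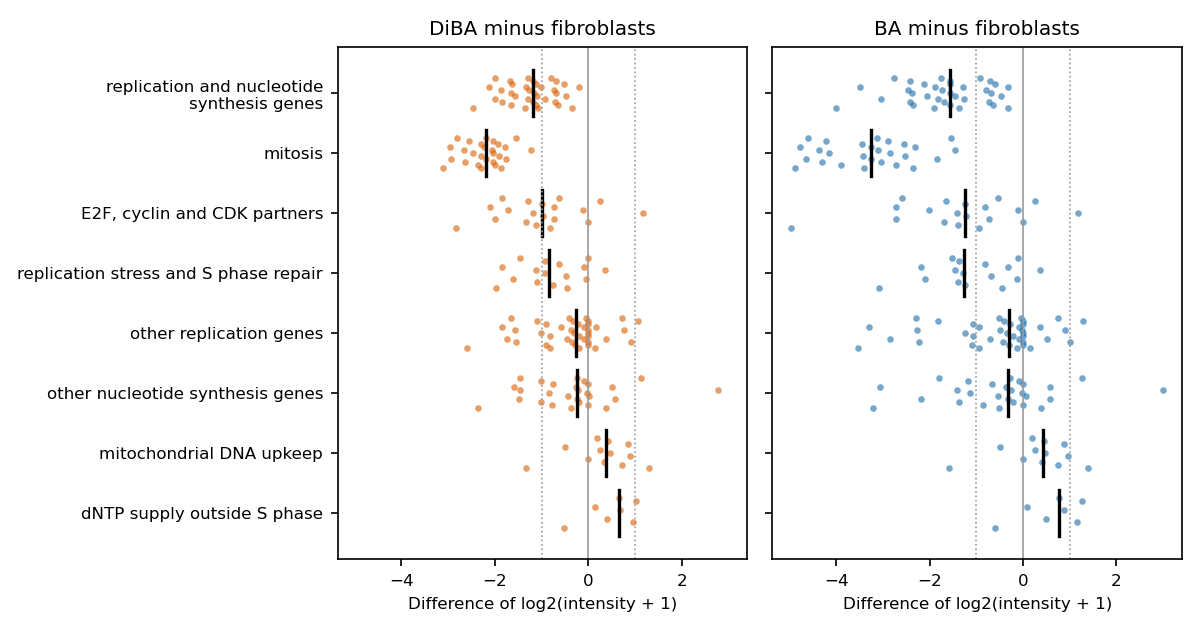
Differences of log2(intensity + 1) from fibroblasts for single genes (points) in DiBA (left) and BA (right), by list, with each list's median as a bar. Dotted lines mark 2-fold. The medians of the replication and nucleotide synthesis genes are -1.18 and -1.57, those of mitosis genes -2.19 and -3.25, and those of mitochondrial DNA upkeep 0.37 and 0.44.

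Of 9 housekeeping genes measured, 1 was called higher in DiBA and in BA, the mitochondrial enzyme gene Sdha, and 1 lower in BA, Ywhaz at -1.19, with medians of -0.09 and -0.27. The members' medians lay below these in both comparisons.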

How the data were processed

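Total RNA of 3 mouse samples was read on 3 arrays, 1 per group, with groups taken from the titles in the labels. Per the submitters' processing notes, the authors made the deposited intensity of each probe set with Affymetrix Expression Console. For summarization, background correction and normalization, the method is not given in the sources used here. Median intensities were 67.8 on the fibroblast array, 71.5 on the DiBA array and 67.7 on the BA array, and the values were used without further scaling.

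Of 28943 probe sets, 21789 had 1 gene symbol in the platform table, 1621 had several and named no gene, and 5533 were not listed. Probe sets of a gene were averaged as log2(intensity + 1), which gave 19938 genes. The 35 members had 37 probe sets. A fold is on this scale, with a pseudocount of 1, and understates changes of dim genes. Calls needed 2-fold and 69.2 on the brighter array, a floor that also served as an alternative. The small number of arrays limits the precision. Python 3.11.15, numpy 2.4.6 and pandas 2.3.3 were used, and the scoring was checked on simulated arrays. Known folds were planted there in bright genes only, so the check does not cover dim ones.

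The members, lists, marker sets and words were chosen with earlier results of these data known. In related lists, 2 to 4 genes with the largest differences were named, and others were chosen after their values were seen. Sequences are RefSeq's, matched by symbol.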

Additional observations from a re-analysis of the deposited data

How the results depend on the processing

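Alternatives were centring each array, quantile normalization, a pseudocount of 16, raising low intensities to 69.2, no filter, a 75th percentile filter, the brightest probe set per gene and a 1.5-fold threshold. No called member changed direction with centring or quantile normalization. For genes with 1 probe set the other settings could not reverse a difference, so they say nothing about direction. With the 75th percentile filter, 16 members passed in each comparison with fibroblasts and 14 were called lower in DiBA and 14 in BA, and 0 were called higher in DiBA than in BA, where 4 members passed. Members higher in DiBA than in BA numbered 2 with a pseudocount of 16, 2 with low intensities raised and 10 at 1.5-fold, against 4. The median difference was -1.05 for DiBA against fibroblasts with a pseudocount of 16, -1.68 for BA against fibroblasts with the brightest probe set per gene, and 0.26 for DiBA against BA with low intensities raised. The other settings left counts within 1.5 times and medians within 0.1 (log2). Centring moved the median of all genes by -0.08 for DiBA against fibroblasts and DiBA against BA. With low intensities raised, Orc1 and Fen1 lost their call in DiBA, and Orc1 and Mcm10 in BA. With a pseudocount of 16, Prim1, Lig1, Ccne2 and Fen1 lost theirs in DiBA, which left 20 members called lower. No paired analysis was possible because each group has 1 array. Intensities under 69.2, 15 of 35 in BA, limit these folds.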
